A study of Mus musculus with 32 samples.

Results

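This account follows 40 genes of the brain's blood vessels through the amygdala of stressed and unstressed mice: 30 genes of endothelial cells and 10 of mural cells, the pericytes and smooth muscle cells that wrap them. The members were chosen by name, as a list of known vessel and barrier genes, out of 25239 genes in the deposited exon count tables, and all 40 were found and passed the filter on low counts. All mice were wild type (WT), and they came unstressed (baseline) or from 1 of 2 stress regimes, acute and chronic. In each of these 3 states some mice had received 4-thiouridine (4sU) and others only its solvent, DMSO. 4sU at 100 mM, or DMSO alone, was placed stereotaxically in the amygdala 24 h before RNA was taken, so every group, baseline included, carried an injection track and DMSO. Cells build 4sU into new RNA, where chemical alkylation makes sequencing read it as C in place of T. With 4sU there were 5 libraries at baseline, 5 under acute and 4 under chronic stress, and with DMSO there were 4, 5 and 3, all of total RNA from the amygdala of both sides. The sources used here do not give strain, age, sex or the kind of stress. Whether each replicate is a separate animal is not stated either, and each p-value therefore reflects how far these libraries vary, which may be technical.

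Brain endothelial cells form the blood-brain barrier: tight junctions seal the gaps between cells, transporters in the membrane admit glucose, amino acids and lipids, and efflux pumps return foreign molecules to the blood. Vascular endothelial growth factor (VEGF) and angiopoietins act on receptor tyrosine kinases of the endothelium, and SOX and ETS transcription factors keep the endothelial programme active. Pericytes depend on platelet-derived growth factor B from the endothelium, and together with smooth muscle cells they regulate vessel tone and barrier tightness.

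The libraries held 16150316 to 21228741 exon counts each. The 10 baseline and acute 4sU libraries had 37.1 to 39.7 reads in 3′ UTR intervals per 100 exon counts, and the other 16 libraries had 44.6 to 53.4. The labels name no batch, and this division runs across the chronic against baseline comparison in 4sU mice, and so enters its average over injections. It also runs across chronic against acute stress in 4sU mice and across 4sU against DMSO at baseline and under acute stress. There it cannot be told apart from the effect compared. Acute DMSO library 2 stood apart at 53.4. Levels are CPM, exon counts scaled to a common library size after normalisation by the trimmed mean of M-values (TMM), changes are log2 fold changes ± SE, and adjusted p-values come from edgeR's quasi-likelihood test with Benjamini-Hochberg adjustment over all genes tested, two-sided. "Rose" and "fell" mean an adjusted p under 0.05.

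In baseline DMSO mice every member was detected. Per kilobase of exon, the scale on which genes can be compared, the highest mean level was that of Slc2a1, the glucose transporter GLUT1, at 49.1 ± 7.92 (SD, n = 4) CPM per kb, followed by Itm2a at 41.9 ± 3.96 (SD, n = 4) and the pericyte gene Vtn, vitronectin, at 37.2 ± 1.17 (SD, n = 4). Each of these overlapped its neighbour in the order within 1 SD, while Slc2a1 and Vtn did not. Claudin 5 (Cldn5), the main sealing protein of brain tight junctions, stood at 20.3 ± 0.232 (SD, n = 4) CPM per kb and the pericyte gene Rgs5, a regulator of G-protein signalling, at 24.7 ± 2.98 (SD, n = 4). At the low end were Anpep at 1.05 ± 0.0863 (SD, n = 4) CPM per kb, Clec14a at 1.35 ± 0.133 (SD, n = 4) and Abcc9 at 1.66 ± 0.274 (SD, n = 4). The angiopoietin receptor Tek and its partner Tie1 had 3.16 ± 0.427 (SD, n = 4) and 3.43 ± 0.285 (SD, n = 4) CPM per kb, a difference within their spread. The defining markers of blood cells were at or near 0, with a summed level of at most 2.37 CPM over 7 markers in any library, and up to 5 or 6 of the 7 were at 0 in 1 library of each group. How reads mapping to several genes were counted is not stated, so these values do not show that blood was absent. Several members are not limited to vessels: Slc2a1 and Slco1c1 are also known from astrocytes, Slc16a1 from glia, Slc7a5 from neurons and Pdgfrb from fibroblasts.

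**Figure D1:**
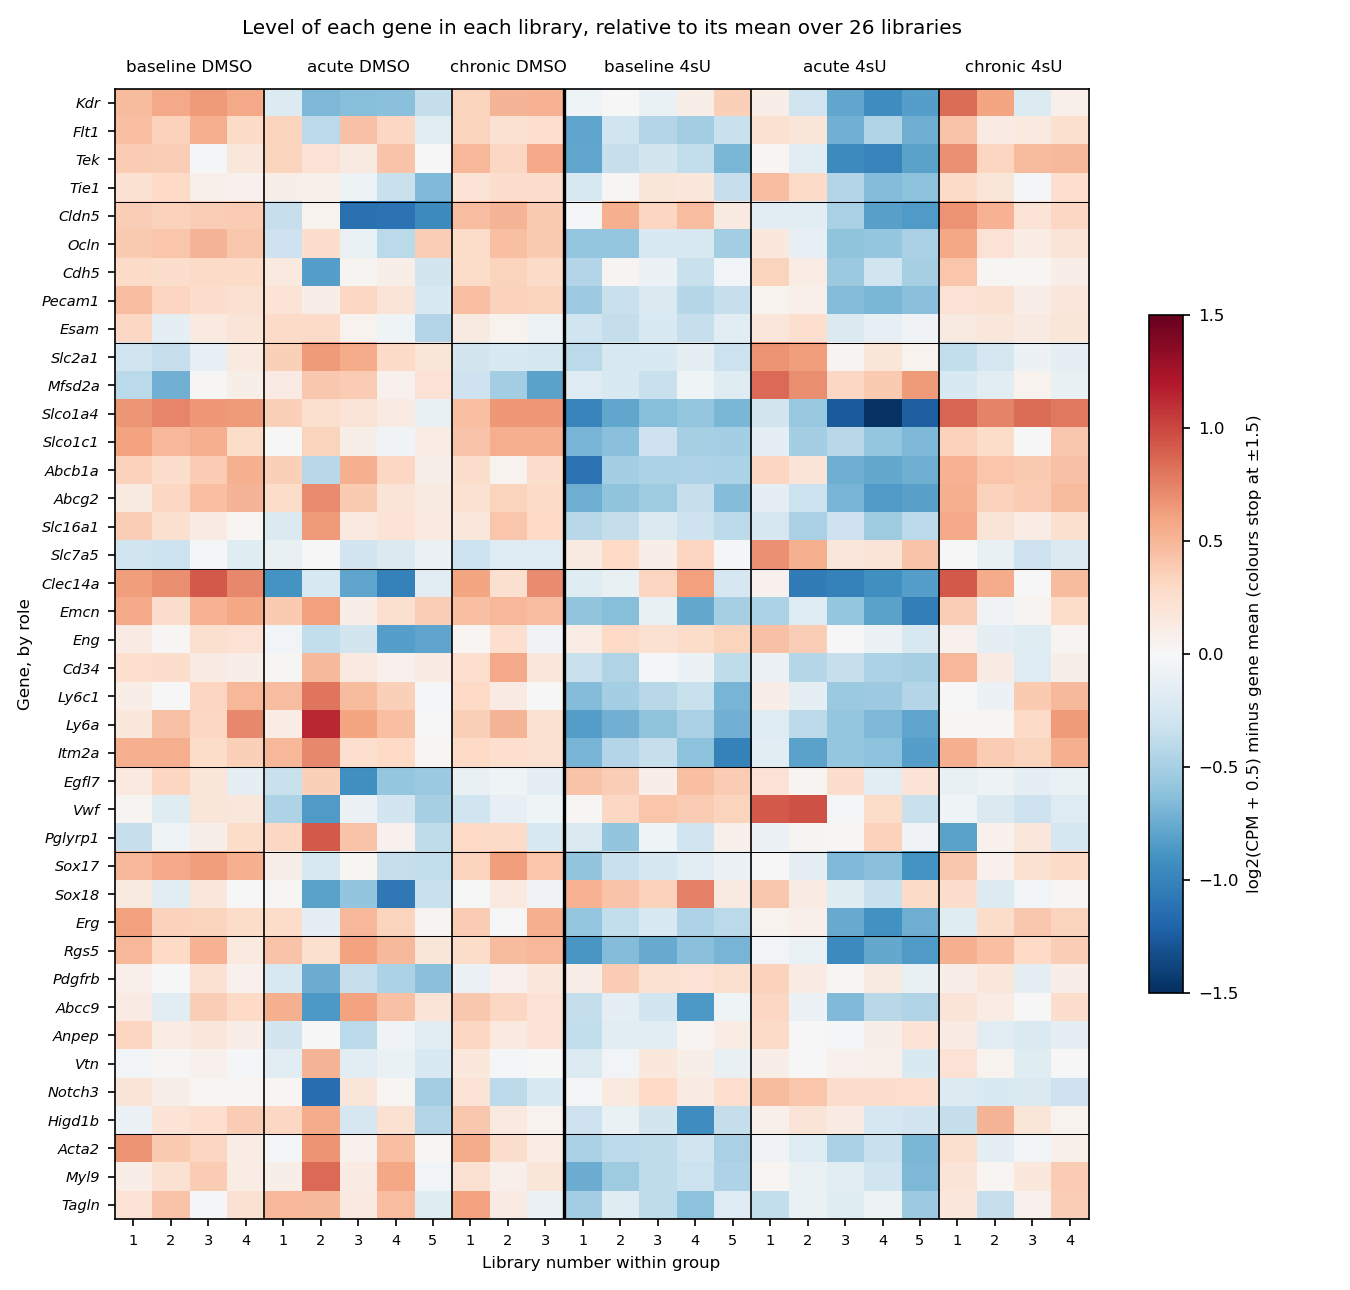
Level of the 40 members in each of the 26 amygdala libraries, as log2(CPM + 0.5) minus the gene's mean over all libraries; rows are genes grouped by role, columns are libraries by group, and the thick line parts DMSO from 4sU mice. Most rows are blue in the baseline and acute 4sU groups, and acute 4sU libraries 1 and 2 are less blue than 3, 4 and 5.

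Acute stress against baseline addresses how transcripts of the amygdala respond to acute stress. Averaged over DMSO and 4sU mice, 2 transporters of the barrier rose, Slc2a1 and the lipid transporter Mfsd2a. The 4 that fell were Cldn5, the VEGF receptor gene Kdr, the endothelial surface lectin gene Clec14a and the pericyte receptor gene Pdgfrb. These were 6 of 40 members, where 2.39% of all 15995 genes tested were called (1.48% higher and 0.913% lower). The median log2 change was -0.04 over the 40 members and 0.01 over all genes tested. In whole tissue, fewer cells of a type and less RNA per cell cannot be told apart.

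Slc2a1 lies on chromosome 4 at 119108745 to 119137329 (mm10, plus strand). It had 114, 109.5, 128 and 154 CPM in the 4 baseline DMSO libraries and 179, 217, 205, 169.5 and 158 CPM in the 5 acute DMSO libraries. In 4sU mice it had 105, 118, 119, 126 and 111 CPM at baseline and 223, 215, 143, 159 and 145 CPM after acute stress. Every acute library lay above every baseline library of its injection, although baseline DMSO library 4 came close to the lowest acute one. The average change was 0.59 ± 0.10 (adjusted p = 0.00127), with 0.57 ± 0.14 in DMSO mice (adjusted p = 0.0336) and 0.61 ± 0.13 in 4sU mice (adjusted p = 0.0534). The call in DMSO mice alone was lost in 5 of 9 fits that left out 1 library (baseline 1, 2 or 3, acute 3 or 4) and with reads in 3′ UTR intervals, with values of 0.51 to 0.66 and 0.53.

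Mfsd2a carries lysophosphatidylcholine with docosahexaenoic acid into the brain and keeps vesicle transfer across the endothelium low. In DMSO mice it had 21.0, 16.7, 28.3 and 29.7 CPM at baseline and 30.6, 37.2, 36.7, 29.3 and 32.5 after acute stress. In 4sU mice the values were 24.5, 23.9, 22.1, 26.8 and 24.6 CPM at baseline and 50.9, 45.7, 34.9, 37.0 and 44.0 after acute stress. The 4sU groups did not overlap, and in DMSO mice the highest baseline library lay just above the lowest acute one. Its average change was 0.65 ± 0.10 (adjusted p = 0.000657), and it was the member called in 4sU mice alone, at 0.80 ± 0.13 (adjusted p = 0.00846).

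Cldn5 had 28.7, 28.3, 28.8 and 29.1 CPM in baseline DMSO libraries and 17.4, 23.0, 9.94, 10 and 11.2 in acute DMSO libraries. In 4sU mice it had 21.9, 32.2, 27.8, 30.7 and 24.3 CPM at baseline and 19.7, 19.6, 15.7, 12.4 and 12.1 after acute stress. The acute libraries were below all baseline libraries of their injection, and acute DMSO library 2 was the highest of its group. The 4 baseline DMSO values lay close together while the acute values spread widely, with means of 28.7 ± 0.328 (SD, n = 4) and 14.3 ± 5.74 (SD, n = 5) CPM. The average change was -0.89 ± 0.15 (adjusted p = 0.0015).

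Kdr encodes VEGF receptor 2, through which VEGF drives endothelial growth and permeability. It had 18.6, 19.7, 20.7 and 19.8 CPM in baseline DMSO libraries and 11.3, 8.06, 8.28, 8.32 and 10.2 CPM in acute DMSO libraries. In 4sU mice it had 12.6, 13.2, 12.2, 14.2 and 16.9 CPM at baseline and 14.1, 10.6, 7.48, 6.66 and 7.18 CPM after acute stress. The DMSO groups were far apart, while acute 4sU library 1 lay inside the baseline 4sU range. The average change was -0.83 ± 0.12 (adjusted p = 0.000456).

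Clec14a, a C-type lectin-like protein of the endothelial surface, had 5.58, 5.9, 6.98 and 5.99 CPM in baseline DMSO libraries. After acute stress its levels were 1.61, 2.82, 1.77, 1.45 and 3.04 CPM in DMSO mice and 3.62, 1.41, 1.45, 1.59 and 1.73 CPM in 4sU mice, against 2.98, 3.13, 4.42, 5.52 and 2.81 CPM in baseline 4sU mice. Acute 4sU library 1 lay within the baseline 4sU range, and the other 4 lay below it. Of the 40 members it had the most negative average change, -1.22 ± 0.19 (adjusted p = 0.0011), on low counts.

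Pdgfrb, the receptor through which platelet-derived growth factor B recruits pericytes, had 29.3, 27.8, 32.6 and 29.1 CPM in baseline DMSO libraries. Acute DMSO libraries had 23.6, 16.5, 21.9, 19.9 and 17.9 CPM, all below baseline. In 4sU mice the values were 29.9, 36.5, 32.6, 32.3 and 32.9 CPM at baseline and 35.6, 30.3, 28.1, 30.7 and 25.7 CPM after acute stress, 2 overlapping groups. The average change was -0.34 ± 0.07 (adjusted p = 0.0111), made up of -0.56 ± 0.10 in DMSO mice and -0.13 ± 0.10 in 4sU mice.

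**Figure D2:**
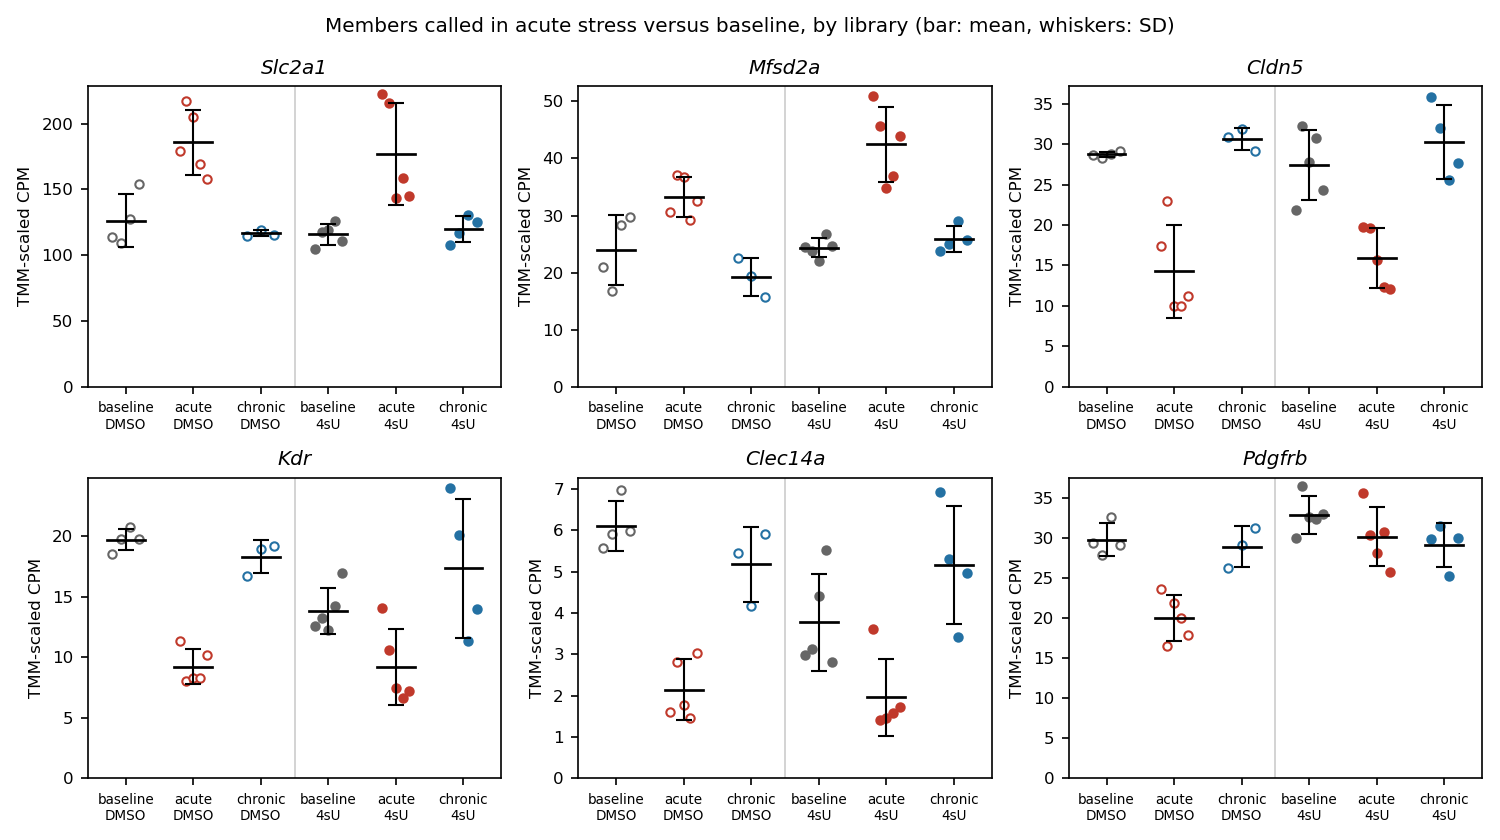
TMM-scaled CPM of the 6 members called after acute stress, per library (open points DMSO, filled points 4sU; grey baseline, red acute, blue chronic), with the group mean as a bar and the SD as whiskers. The acute means lie above the baseline means of the same injection for Slc2a1 and Mfsd2a and below them for Cldn5, Kdr, Clec14a and Pdgfrb.

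The stretches just upstream of the start sites of these genes are shown for 5 of the 6 members called in the acute average, 2 that rose and 3 that fell; no Pdgfrb sequence is shown. They were taken from RefSeq's promoter table for GRCm38.p6, which had entries for 29 of the 40 members. Each line gives the 250 bases before the annotated start, 5′ to 3′ on the gene's strand. Capitals mark GGAAG, the ETS core followed by G, or ACAAT, a core recognised by SOX factors, on either strand, so that CTTCC and ATTGT are marked too. An ETS core followed by another letter is not marked or counted.
Slc2a1, chr4:119108495-119108744, plus strand: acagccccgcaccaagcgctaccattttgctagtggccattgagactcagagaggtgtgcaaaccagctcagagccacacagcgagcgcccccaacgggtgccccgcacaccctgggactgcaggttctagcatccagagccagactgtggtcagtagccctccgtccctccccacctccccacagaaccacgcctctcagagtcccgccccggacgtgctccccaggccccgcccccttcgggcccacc
Mfsd2a, chr4:122961189-122961438, minus strand: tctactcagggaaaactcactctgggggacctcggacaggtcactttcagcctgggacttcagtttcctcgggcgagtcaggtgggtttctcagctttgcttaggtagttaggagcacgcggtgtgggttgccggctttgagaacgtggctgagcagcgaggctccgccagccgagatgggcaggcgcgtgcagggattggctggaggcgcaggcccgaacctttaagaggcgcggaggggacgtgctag
Cldn5, chr16:18776597-18776846, plus strand: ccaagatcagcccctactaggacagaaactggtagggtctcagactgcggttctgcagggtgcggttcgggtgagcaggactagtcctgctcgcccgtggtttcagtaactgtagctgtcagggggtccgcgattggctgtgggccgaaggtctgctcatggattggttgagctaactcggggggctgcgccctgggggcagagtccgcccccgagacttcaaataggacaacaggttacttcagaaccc
Kdr, chr5:75978456-75978705, minus strand: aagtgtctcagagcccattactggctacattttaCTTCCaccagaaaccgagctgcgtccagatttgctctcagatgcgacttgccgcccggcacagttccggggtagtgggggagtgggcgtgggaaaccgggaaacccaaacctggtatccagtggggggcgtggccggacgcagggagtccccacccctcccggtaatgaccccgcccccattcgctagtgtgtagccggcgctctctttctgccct
Clec14a, chr12:58269259-58269508, minus strand: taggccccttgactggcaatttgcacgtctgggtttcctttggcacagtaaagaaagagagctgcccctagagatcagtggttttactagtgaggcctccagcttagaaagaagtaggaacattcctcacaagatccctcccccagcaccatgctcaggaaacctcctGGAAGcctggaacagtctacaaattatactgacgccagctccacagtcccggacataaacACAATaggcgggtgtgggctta
These letters gave 1 GGAAG match in the Kdr window and 1 in the Clec14a window, which also held 1 ACAAT match. The Slc2a1, Mfsd2a and Cldn5 windows held neither. GGAAG occurred in 64.1% of the 32851 windows of 250 bases in the table and in 25 of the 37 promoters of the members, and ACAAT in 27.7% of all and 8 of the members'. The glucocorticoid receptor half-site TGTTCT occurred in 16.1% of all promoters and the palindromic receptor element in 0.387%, and none of the 5 windows held either. A match is a description of the letters and not a binding site. The 5 windows had 50.8% to 66.4% G and C, beside a median of 52.4% over all promoters.

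The other members with a role in VEGF and angiopoietin signalling did not pass the test after acute stress. Flt1, the VEGF receptor that acts largely as a decoy, had an average of -0.01 ± 0.14, Tek, the receptor of angiopoietins, -0.01 ± 0.13 and its partner Tie1 -0.21 ± 0.15. Of the other junction genes, occludin (Ocln) had -0.15 ± 0.12, VE-cadherin (Cdh5) -0.19 ± 0.13, Pecam1 -0.07 ± 0.11 and Esam 0.12 ± 0.10, none of them called. Cldn5 was thus the 1 junction member of 5 that fell, and the difference between it and the others was not tested.

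Among the 8 transporters 2 rose and 0 fell. The organic anion carrier Slco1a4 had -0.33 ± 0.12 (adjusted p = 0.215) and the thyroid hormone carrier Slco1c1 -0.15 ± 0.07 (adjusted p = 0.38). The efflux pumps Abcb1a (P-glycoprotein) and Abcg2 had 0.09 ± 0.16 and 0.02 ± 0.11, the lactate carrier Slc16a1 -0.01 ± 0.08 and the amino acid carrier Slc7a5 0.16 ± 0.07.

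Of the 13 surface, secreted and transcription factor members, Clec14a was the 1 called in the average. Endoglin (Eng), a co-receptor for transforming growth factor beta and bone morphogenetic proteins, had 25.2, 23.4, 27.5 and 27.0 CPM in baseline DMSO libraries and 22.5, 17.8, 19.0, 12.9 and 13.2 CPM in acute DMSO libraries, with no overlap. In 4sU mice it had 25.1, 28.6, 27.3, 28.1 and 29.3 CPM and 31.6, 30.1, 23.0, 21.8 and 19.5 CPM, which overlapped. Eng fell in DMSO mice, by 0.58 ± 0.15 on the log2 scale (adjusted p = 0.0482), and its average change of -0.36 ± 0.10 did not pass (adjusted p = 0.0827). The call in DMSO mice was lost in 7 of 9 fits without 1 library (all but those without acute 1 or 2), with values of -0.70 to -0.50, and with the replicate block and 3′ UTR reads. Sox17, a transcription factor of arterial and barrier endothelium, had 9.59, 10.1, 10.5 and 9.8 CPM in baseline DMSO libraries and 7.09, 5.53, 6.8, 5.12 and 5.03 CPM in acute ones, again without overlap. It fell by 0.74 ± 0.17 on the log2 scale in DMSO mice (adjusted p = 0.0267), with an average of -0.45 ± 0.12 (adjusted p = 0.0542). Without baseline 1, 2 or 3 or acute 4 the call in DMSO mice was lost, at values of -0.81 to -0.70 over the 9 fits, and also with the replicate block and with 3′ UTR reads (-0.56, adjusted p = 0.578). Its relative Sox18 had an average of -0.49 ± 0.14 (adjusted p = 0.0799), and the ETS factor Erg -0.08 ± 0.15. The secreted members Egfl7, which lies along the vessel wall, von Willebrand factor (Vwf), stored in endothelial granules, and Pglyrp1 had -0.35 ± 0.12, -0.16 ± 0.14 and 0.33 ± 0.15. Emcn, Cd34, Ly6c1, Ly6a and Itm2a ranged from -0.11 to 0.22, and Ly6a and Ly6c1 have close paralogues among which counting could split reads.

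Of the 10 mural members Pdgfrb alone was called in the average. The other 9 ranged from -0.07 for the membrane peptidase Anpep to 0.22 for the myosin light chain Myl9, with 0.13 for Rgs5, 0.02 for Vtn, -0.06 for the Notch receptor of mural cells Notch3 and 0.11 for the potassium channel subunit Abcc9. The smooth muscle genes Acta2 and Tagln had -0.02 ± 0.11 and 0.12 ± 0.11. The median over the mural members was 0.06 and over the endothelial members -0.07.

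In DMSO mice alone 1 member rose (Slc2a1) and 6 fell, where 2.51% of all genes were called. The 6 were Kdr at -1.08 ± 0.18, Cldn5 at -0.99 ± 0.21, Clec14a at -1.49 ± 0.28, Eng, Sox17 and Pdgfrb. For 10 members the acute DMSO libraries were all below the baseline DMSO libraries, and for 1, Slc2a1, all above, while 2.79% and 2.61% of all 16310 genes did so. The 10 were Kdr, Cldn5, Ocln, Cdh5, Slco1a4, Clec14a, Eng, Sox17, Pdgfrb and Anpep. In 4sU mice alone Mfsd2a was the 1 member called, where 0.269% of all genes were (0.206% higher and 0.0625% lower). The acute 4sU libraries were all above the baseline 4sU ones for 2 members, Slc2a1 and Mfsd2a, and all below for 1, Cldn5. Of all genes 1.39% and 0.736% did so. There 7 members had an unadjusted p under 0.05, where 4.08% of all genes did. The test of the difference between the injections called 0 members and 0 genes (edgeR), with 7 members at an unadjusted p under 0.05, where 5.73% of all genes were.

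Leaving out any 1 of the 19 libraries, the 6 calls of the average were kept each time, and 6 to 9 members were called. In DMSO mice the count fell from 7 to 4 without baseline library 1, 2 or 3 or acute library 4, and to 1, Kdr, when the 2 DMSO groups were fitted alone. Kdr, Cldn5, Clec14a and Pdgfrb stayed called in all 9 fits without 1 library, and the calls lost were those of Slc2a1, Eng and Sox17. In 4sU mice it went from 1 to 3 without acute library 1 and to 2 without acute library 3 or 5.

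In acutely stressed mice a pair of 4sU libraries stood apart in the vessel genes. A single DMSO library, described further below, stood apart over all genes and not in the members in particular. In acute 4sU libraries 1 and 2, 27 of 40 members were higher than in each of libraries 3, 4 and 5 and 0 were lower than in each, where 19.6% of all genes were higher and 18.2% lower. This split was chosen after the values were seen, so the counts describe it and do not test it. The same holds for the fits below without these 2 libraries. Flt1 had 71.2, 68.8, 36.5, 44.2 and 36.3 CPM in acute 4sU libraries 1 to 5, the efflux pump gene Abcb1a 38.1, 34.8, 18.1, 17.7 and 18.1 and the pericyte gene Rgs5 84.2, 80.8, 44.3, 50.6 and 47.8. Libraries 1 and 2 were the high ones in each of these genes. Without these 2 libraries the acute average called 9 members, the 6 above with Eng at -0.49 ± 0.10, Sox17 at -0.63 ± 0.10 and Slco1a4 at -0.57 ± 0.07. In 4sU mice alone it then called Kdr at -0.96 ± 0.13 and Slco1a4 at -0.62 ± 0.11, and Mfsd2a was no longer called, at 0.66 ± 0.15 (adjusted p = 0.133).

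Acute DMSO library 2 was the highest of its group in 19 members and the lowest in 9, where 35.9% and 33.6% of all genes were. It was low in Notch3, with 37.8, 16.5, 42.0, 37.6 and 25.6 CPM over the 5 acute DMSO libraries, and in Cdh5, with 14.4, 7.09, 13.3, 13.8 and 10.6 CPM. It was high in Ly6a, with 22.7, 46.3, 31.8, 28.9 and 20.9 CPM, and in Vtn, with 57.9, 92.3, 57.3, 60.1 and 55.0 CPM. Its ratio of 3′ UTR reads to exon counts was also the highest, and the part of that in these values was not tested.

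Sums of oligodendrocyte markers did not overlap between acute and baseline DMSO libraries. Glutamatergic, choroid plexus and fibroblast sums overlapped and spread more widely in acute DMSO libraries. The summed level of 8 glutamatergic markers was 1130 to 3596 CPM in acute DMSO and 2181 to 2853 CPM in baseline DMSO libraries, and that of 8 oligodendrocyte markers 17650 to 28180 against 12950 to 16290 CPM. The 6 choroid plexus markers summed to 37.0 to 5731 against 2908 to 3438 CPM, and no marker of these 3 lists was at 0. The 8 fibroblast markers summed to 72.2 to 257 CPM in acute DMSO, with 1 at 0 in 1 or more libraries, and to 215 to 269 CPM in baseline DMSO libraries. In 4sU mice these sums overlapped between acute and baseline libraries: 2987 to 4149 against 3245 to 4368 CPM for glutamatergic and 7818 to 9956 against 6801 to 9474 CPM for oligodendrocyte markers. Of the 8 oligodendrocyte markers 5 rose in the average and 7 in DMSO mice, and 0 of the 8 glutamatergic ones were called in either. The part of these in the vessel genes was not tested. Leaving out the 4 libraries with low glutamatergic marker levels (acute DMSO 1, 3 and 4 and chronic DMSO 1) the 6 calls were kept and Eng, Sox17, Sox18 and Notch3 fell too, at -0.43 ± 0.10, -0.54 ± 0.14, -0.52 ± 0.14 and -0.36 ± 0.08. In DMSO mice alone, with acute libraries 2 and 5 left, 10 members were then called. Among those added, Mfsd2a rose by 0.55 ± 0.18 and Notch3 fell at -0.89 ± 0.14. The difference between the injections called 2 members, Pdgfrb at 0.65 ± 0.14 and Notch3 at 1.07 ± 0.17 (4sU minus DMSO mice). Both calls rest on the 2 acute DMSO libraries kept, which were the lowest of their group in both genes. Notch3 had 16.5 and 25.6 CPM in these and 37.8, 42.0 and 37.6 CPM in the acute DMSO libraries left out. Pdgfrb had 16.5 and 17.9 CPM against 23.6, 21.9 and 19.95 CPM.

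Other genes of the same pathways were described from lists of known members, and their counts stand beside 2.39% of all genes called in the average (1.48% higher and 0.913% lower). Of 17 tested genes of VEGF and angiopoietin signalling 1 rose and 1 fell in the acute average: Apln, a peptide of sprouting endothelial tip cells, at 0.38 ± 0.08, and the Notch ligand Jag1 at -0.49 ± 0.09. Of 15 genes of Wnt and Norrin signalling, which induces the barrier, 0 rose and 2 fell, the Wnt target genes Axin2 at -0.29 ± 0.06 and Apcdd1 at -0.34 ± 0.08. Of 16 other barrier transporters 0 rose and 2 fell, the organic anion carrier Slc22a8 at -0.39 ± 0.10 and the iron exporter ferroportin (Slc40a1) at -0.52 ± 0.10. Of 12 other endothelial transcription factors 1 fell, Ets1 at -0.67 ± 0.09 (adjusted p = 0.000172), which was also called in DMSO mice (-0.76 ± 0.13) and in 4sU mice (-0.59 ± 0.12). Of 11 genes of growth factor signalling at the vessel wall 1 fell, the receptor gene Tgfbr2 at -0.39 ± 0.09. Of 10 tested genes of endothelial activation 1 rose, the plasminogen activator Plat at 0.32 ± 0.06, which neurons also express. In DMSO mice alone 2.51% of all genes were called (1.41% higher and 1.1% lower). There Nos3, the endothelial nitric oxide synthase, fell as well, at -0.62 ± 0.16, and so did the SOX factor gene Sox7 at -1.04 ± 0.23. The pericyte-recruiting ligand gene Pdgfb fell there at -0.49 ± 0.11 and Adgra2, a co-receptor for Wnt ligands, at -0.40 ± 0.10. In 4sU mice Nos3 and Sox7 were not called, at 0.01 ± 0.15 and -0.12 ± 0.22. In the average, none of the 10 junction partners, 6 genes of caveolae and vesicle transfer, 9 other pericyte genes and 9 tested smooth muscle genes was called. The 3 glucocorticoid-induced reference genes rose in the average, Fkbp5 by 0.84 ± 0.11, Sgk1 by 1.68 ± 0.20 and Tsc22d3 by 1.12 ± 0.11. Their summed level was 176.5 to 466.6 CPM in baseline DMSO and 612.1 to 962.9 CPM in acute DMSO libraries. In 4sU mice it was 188.9 to 229.2 CPM at baseline and 476.3 to 526.7 CPM after acute stress. The baseline DMSO libraries thus spread widely, with the highest near the acute 4sU range.

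**Figure D3:**
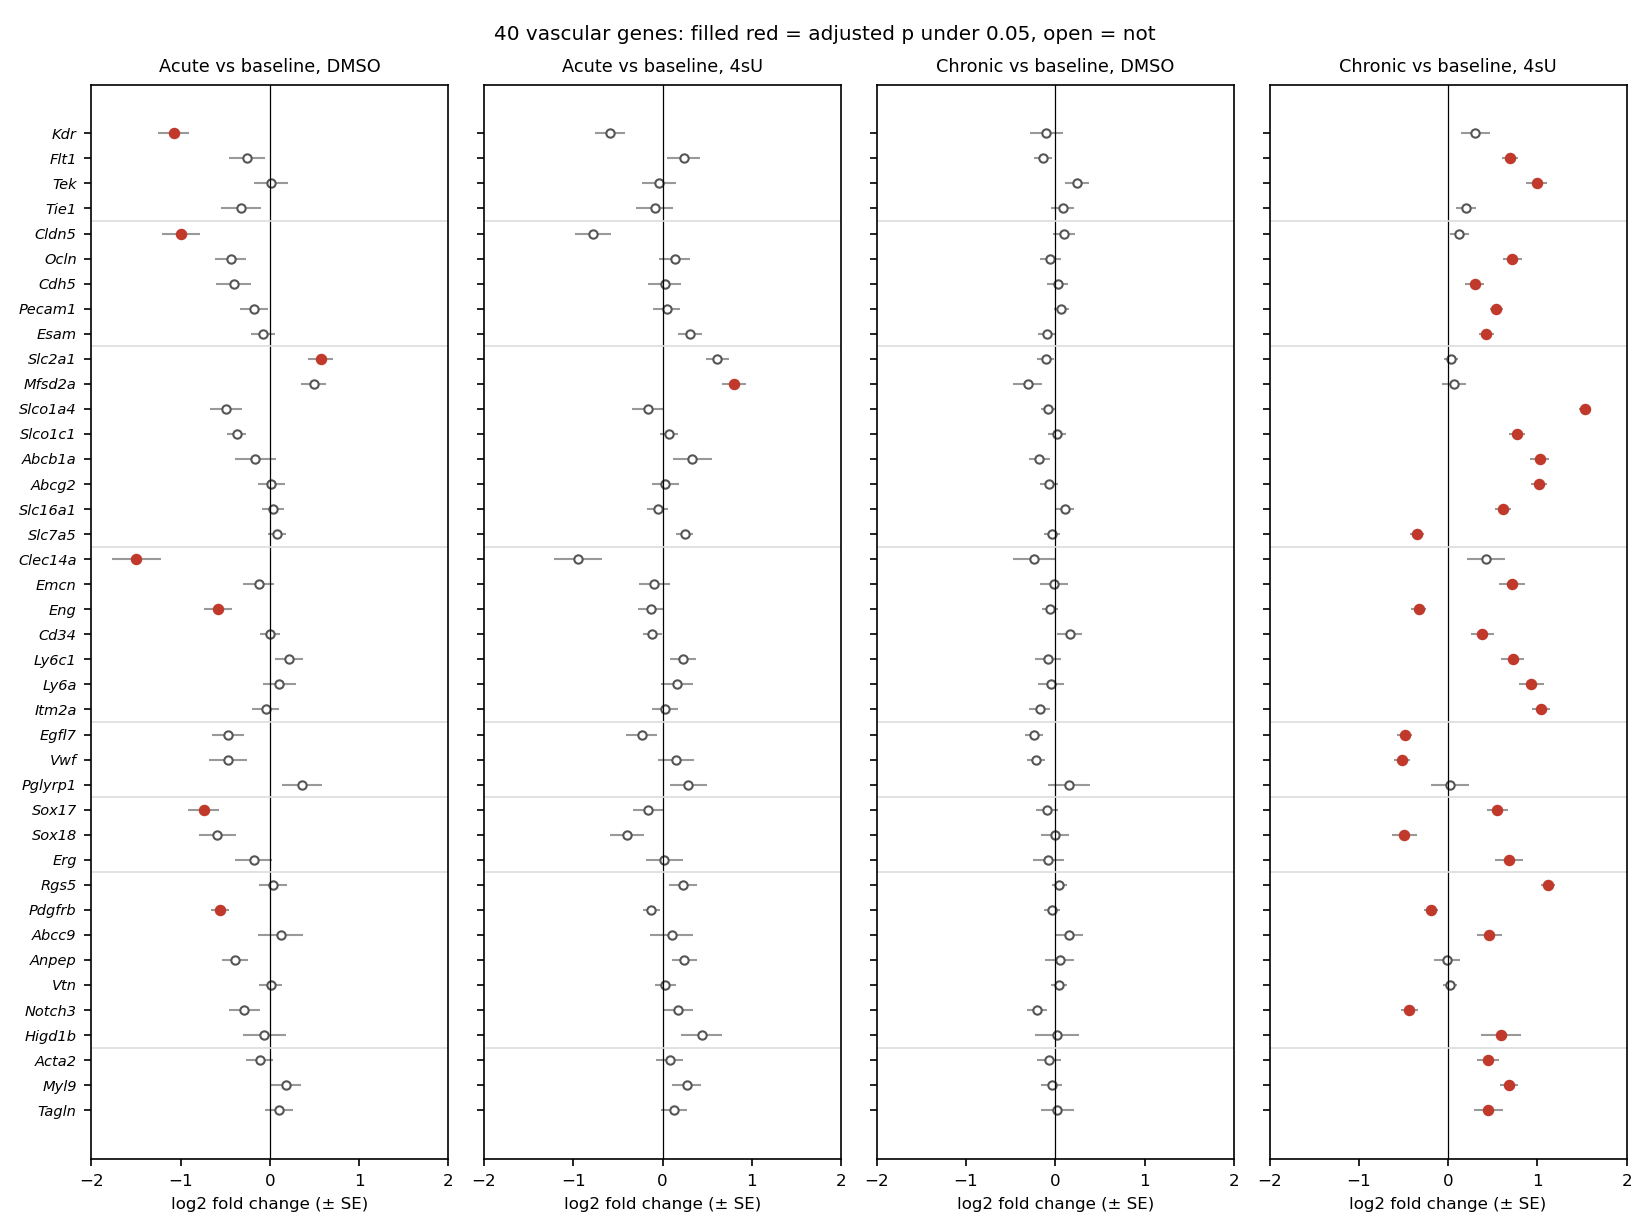
Log2 fold change ± SE of the 40 members in acute and chronic stress against baseline, in DMSO and 4sU mice; red points have an adjusted p under 0.05 (edgeR) and grey lines part the roles. In DMSO mice 7 members are called after acute and 0 after chronic stress, and in 4sU mice 1 and 31, the last comparison crossing the division of the libraries.

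Chronic stress against baseline addresses the same question for chronic stress. In DMSO mice, whose libraries all lie on 1 side of the division, 0 of 40 members and 0 of 16096 genes were called by edgeR. There 2 members, Egfl7 and Vwf, had an unadjusted p under 0.05, where 5.67% of all genes did. Member changes ran from -0.31 for Mfsd2a to 0.24 for Tek, with SEs of 0.08 to 0.25 and a median of -0.05. Of the members called after acute stress, 4 are given by library. Cldn5 had 30.9, 31.8 and 29.2 CPM in the 3 chronic DMSO libraries, all above the baseline DMSO range, Kdr 16.7, 19.0 and 19.2 CPM, Slc2a1 115, 119 and 116 CPM and Pdgfrb 26.2, 29.1 and 31.2 CPM. Their changes were 0.10 ± 0.12, -0.10 ± 0.18, -0.11 ± 0.10 and -0.04 ± 0.09, none of them called. Cldn5 was the 1 member with all chronic above all baseline DMSO libraries, by 29.16 against 29.1 CPM at the nearest, and 0 members lay all below. Of all genes 3.58% lay all above and 4.32% all below. Leaving out any 1 of these libraries, and every other alternative tried, gave 0 called members too. Of the other pathway genes 0 were called.

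In 4sU mice 24 members rose and 7 fell after chronic stress, where 56.5% of all genes were called: 26.9% of all genes rose and 29.6% fell. The members' median was 0.45 and that of all genes tested -0.02. The transporter gene Slco1a4 had 25.8, 30.1, 33.0, 34.5 and 32.1 CPM in baseline 4sU libraries and 95.0, 87.1, 92.9 and 90.1 CPM in chronic 4sU libraries, a change of 1.53 ± 0.07. In DMSO mice it had 82.2, 86.6, 81.5 and 80.8 CPM at baseline and 70.8, 81.2 and 81.5 CPM after chronic stress, so the low group was baseline 4sU. Rgs5 had 47.1, 54.9, 51, 56.0 and 53.2 CPM in baseline 4sU and 126, 118, 106 and 111 CPM in chronic 4sU libraries (1.12 ± 0.08), with 122, 107, 124 and 95.8 CPM in baseline DMSO libraries. Its chronic 4sU values lay within the range of the DMSO groups.

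The other risers among receptors and junction genes in 4sU mice were Flt1 (0.69), Tek (0.99), Ocln (0.72), Cdh5 (0.30), Pecam1 (0.54) and Esam (0.43). Among transporters Slco1c1 (0.77), Abcb1a (1.03), Abcg2 (1.02) and Slc16a1 (0.61) rose as well. Among surface members and transcription factors Itm2a (1.04), Ly6a (0.93), Emcn (0.72), Ly6c1 (0.72), Cd34 (0.38), Sox17 (0.55) and Erg (0.68) did, and among mural members Higd1b (0.59), Abcc9 (0.46), Acta2 (0.44), Myl9 (0.69) and Tagln (0.45). The 7 that fell were Slc7a5 (-0.35), Eng (-0.33), Egfl7 (-0.49), Vwf (-0.52), Sox18 (-0.49), Pdgfrb (-0.20) and Notch3 (-0.43). The Pdgfrb call was lost in all 8 other settings tried and in 8 of 9 fits without 1 library (all but that without baseline 4sU 1), with values of -0.24 to -0.13. With reads in 3′ UTR intervals in place of exon counts 20 of the 31 members were called, Notch3 among them in the other direction, and Abcg2, Vwf and Higd1b could not be tested. The calls of Cdh5, Cd34, Emcn, Sox18 and Acta2 were among those lost, Notch3 turned to a rise of 0.42, Egfl7 to 0.09 and Tagln from 0.45 to -0.26.

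Kdr, Cldn5, Slc2a1, Mfsd2a and Clec14a, which were called in the acute average, were not called in this comparison, with 0.30 ± 0.16, 0.12 ± 0.10, 0.03 ± 0.08, 0.07 ± 0.14 and 0.43 ± 0.21. The difference of the chronic effect between the injections was called in 20 members, 19 more positive and 1 (Slc7a5) more negative in 4sU mice, where 38.0% of all genes were called (18.1% more positive and 19.9% more negative). The Slc7a5 difference was lost in 12 of 16 fits without 1 library and in 5 of 7 other settings, with values of -0.38 to -0.25. With 3′ UTR reads 12 of the 20 were still called, those of Tek, Pecam1, Esam, Slco1c1, Emcn, Acta2 and Myl9 were lost, and Abcg2 could not be tested. Averaged over injections 20 members rose and 5 fell, where 43.8% of all genes were called (21.3% higher and 22.5% lower). This average includes the 4sU mice and so crosses the division of the libraries, while in DMSO mice alone 0 genes were called. Oligodendrocyte markers moved with the division too: their sum was 6801 to 9474 CPM in baseline 4sU, 19170 to 20740 in chronic 4sU, 12950 to 16290 in baseline DMSO and 13480 to 16590 in chronic DMSO libraries, with none of the 8 at 0, and all 8 rose in 4sU mice. Their part in the members' values was not tested.

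Chronic against acute stress compares the stressed states directly. In DMSO mice 5 members were higher after chronic than after acute stress and 2 lower, where 1.78% of all 16310 genes were called (0.711% higher and 1.07% lower). The higher ones were Kdr at 0.99 ± 0.21 (adjusted p = 0.0119), Cldn5 at 1.10 ± 0.21 (adjusted p = 0.00572), Clec14a at 1.27 ± 0.29, Sox17 at 0.66 ± 0.17 and Pdgfrb at 0.53 ± 0.11. The lower ones were Slc2a1 at -0.67 ± 0.14 and Mfsd2a at -0.79 ± 0.15. This comparison shares the acute DMSO libraries with the acute comparison above, so it is not a separate observation of them. Clec14a had 5.45, 4.16 and 5.92 CPM and Mfsd2a 22.5, 19.4 and 15.8 CPM in the 3 chronic DMSO libraries. The chronic and acute DMSO values did not overlap in either gene. Of the 8 oligodendrocyte markers 7 were lower after chronic stress, and their part in these values was not tested. In all, 11 members had chronic DMSO libraries all above the acute DMSO ones and 2 all below, where 3.65% and 2.93% of all genes did.

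The count of 7 depended on the libraries and groups in the fit: it was 2 without chronic DMSO library 2, 1 without chronic DMSO library 3, 2 without the 4 low-glutamatergic libraries and 0 when the 2 groups were fitted alone. The log2 values moved less: over the fits without 1 library they were 0.94 to 1.07 for Kdr, 0.99 to 1.34 for Cldn5, 1.16 to 1.42 for Clec14a, -0.74 to -0.61 for Slc2a1 and -0.91 to -0.65 for Mfsd2a. The Sox17 call was lost in 5 of these 8 fits and in 6 of 7 other settings. In 4sU mice 22 members were higher and 5 lower after chronic stress, where 47.2% of all genes were called (23.9% higher and 23.3% lower), again across the division of the libraries. There Kdr had 0.91 ± 0.20, Cldn5 0.93 ± 0.20, Clec14a 1.40 ± 0.27, Slc2a1 -0.56 ± 0.13 and Mfsd2a -0.71 ± 0.14, all called. With 3′ UTR reads Slc2a1 was not called there, at -0.15 (adjusted p = 0.411). Of the other pathway genes Ets1 and Sox7 were higher after chronic stress in DMSO mice, at 0.73 ± 0.15 and 1.03 ± 0.24, as were Jag1 at 0.56 ± 0.13, Tgfbr2 at 0.55 ± 0.12, the vasoconstrictor gene Edn1 at 1.10 ± 0.25 and Adgra2 at 0.43 ± 0.11. Apln and Smad7 were lower, at -0.71 ± 0.12 and -0.52 ± 0.12.

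The comparison of 4sU with DMSO within a state gives the background that the label and its libraries add. At baseline 1 member was higher and 24 lower in 4sU mice, where 41.9% of all genes were called (21.1% higher and 20.7% lower). The members' median was -0.57, and that of all genes tested -0.01. Slc7a5, part of the carrier of large neutral amino acids, was the higher one, with 87.0 ± 8.4 (SD, n = 5) against 67.1 ± 6.73 (SD, n = 4) CPM (0.38 ± 0.10). Those with the most negative changes were Slco1a4 (-1.40 ± 0.18), Ly6a (-1.11 ± 0.19), Rgs5 (-1.09 ± 0.16), Emcn (-1.07 ± 0.18), Itm2a (-1.04 ± 0.15) and Slco1c1 (-1.01 ± 0.11). The smooth muscle genes Acta2, Myl9 and Tagln were lower too, at -0.82 ± 0.16, -0.71 ± 0.17 and -0.61 ± 0.16. With 3′ UTR reads these 3 calls were lost, at -0.39 (adjusted p = 0.5002), -0.33 (0.214) and -0.02 (0.965). Slc2a1, Mfsd2a, Cldn5, Vtn and Notch3 were not called, at -0.12 ± 0.14, 0.04 ± 0.14, -0.06 ± 0.21, -0.01 ± 0.12 and 0.09 ± 0.18.

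Under acute stress 8 members were higher and 16 lower in 4sU mice, where 48.3% of all genes were called (23.5% higher and 24.8% lower). The higher ones were Mfsd2a (0.35), Slc7a5 (0.55), Eng (0.56), Egfl7 (0.47), Vwf (0.87), Sox18 (0.64), Pdgfrb (0.59) and Notch3 (0.55, which became -0.33 with 3′ UTR reads). Of these, Egfl7 was lost in 6 of 10 fits without 1 library and in 4 of 9 other settings (values down to 0.15), and Mfsd2a in 6 of 10 and 3 of 9 (down to 0.21). Eng and Sox18 were lost in 2 of 9 other settings each, and Vwf ranged from 0.41 to 1.12 while still called. The lower ones included Slco1a4 (-1.08), Ly6a (-1.05), Emcn (-1.04), Itm2a (-0.97), Abcg2 (-0.93), Rgs5 (-0.89), Tek (-0.78) and Acta2 (-0.63, lost with 3′ UTR reads at -0.34). With 3′ UTR reads 15 of the 24 members were still called, and Abcg2 and Vwf could not be tested. Under chronic stress, where both groups lie on the same side of the division, 0 members were called (edgeR) and 0.137% of all genes were (0.0249% higher and 0.112% lower). There 7 members had an unadjusted p under 0.05, where 9.16% of all genes did, and the members' changes ran from -0.37 for Anpep to 0.42 for Mfsd2a. The 3 chronic DMSO and 4 chronic 4sU libraries did not overlap in 9 members. In 5 of them 4sU was higher and in 4 lower, where 4.4% and 4.46% of all genes were.

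Over all 26 libraries, 8 members were lower in each of the 10 baseline and acute 4sU libraries than in each of the other 16, where 9.77% of all genes were. These were Slco1a4, Slco1c1, Abcg2, Slc16a1, Emcn, Ly6a, Itm2a and Rgs5. Itm2a, a membrane protein of brain endothelium, ranged from 24.6 to 44.6 CPM in the 10 libraries and from 51.4 to 83.4 CPM in the 16. Rgs5 ranged from 44.3 to 84.2 CPM in the 10 and from 95.8 to 131 CPM in the 16. Not 1 member was higher in all 10, where 9.25% of all genes were.

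The conversion tables addressed which of these transcripts carried new RNA. All 40 members were in them, and 19 had the mean of at least 2000 covered T positions that the test needed. The members below it were not tested. Of these, Myl9 had 7, 9 and 15 conversions with 4sU at baseline, acute and chronic stress and 1, 1 and 0 with DMSO. Emcn had 0, 2 and 0 with 4sU and 1, 2 and 4 with DMSO. Rgs5 had the most covered T of the 40 members, a mean of 52610 beside 24810 for Slc2a1. Rgs5 was the 1 tested member called higher in 4sU than in DMSO mice, and it was so in each state. Per 10000 covered T it had 6.12, 8.74, 9.04, 2.95 and 6.98 conversions in baseline 4sU and 2.38, 2.88, 2.43 and 2.09 in baseline DMSO libraries. After acute stress the rates were 9.91, 5.59, 7.74, 4.53 and 2.57 in 4sU and 2.34, 2.19, 2.31, 3.39 and 2.08 in DMSO libraries. After chronic stress they were 5.94, 7.19, 8.33 and 7.18 and 1.35, 2.66 and 3.24. The 4sU and DMSO values did not overlap at baseline or after chronic stress, and after acute stress 1 4sU library lay within the DMSO range. The log2 ratio of rates was 1.45 ± 0.35 at baseline (adjusted p = 0.000821), 1.32 ± 0.32 under acute (adjusted p = 0.000674) and 1.54 ± 0.38 under chronic stress (adjusted p = 0.000624). Among all 8662 genes tested 7.2%, 11.6% and 14.1% were called in the 3 states, 7.04%, 11.5% and 14% higher.

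Slc2a1 was called lower in 4sU than in DMSO mice at baseline, where 0.162% of all genes were. Its rates per 10000 covered T were 0, 0.798, 0.699, 0 and 0.716 in baseline 4sU and 4.09, 2.85, 1.94 and 2.2 in baseline DMSO libraries. Baseline 4sU libraries 1 and 4 had 0 conversions, which allows a rate of up to 2.34 and 1.81 (3 conversions of their 12847 and 16603 covered T, counting error only). The group rates rested on 3 conversions in the 5 4sU libraries and 27 in the 4 DMSO libraries. The log2 ratio was -2.54 ± 0.85 (adjusted p = 0.0419), and the call was lost without any 1 of 7 of the 9 libraries, namely baseline 4sU 1, 3, 4 or 5 or baseline DMSO 1, 2 or 4. 

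Summed over all 19 tested members, the rate per 10000 covered T was 3.23 ± 0.931 with 4sU and 2.73 ± 0.316 with DMSO at baseline, 3.41 ± 0.971 and 2.34 ± 0.260 under acute stress, and 4.14 ± 0.142 and 2.29 ± 0.247 under chronic stress (SD). Without Rgs5 the order at baseline turned. Summed over the 18 tested members other than Rgs5, the rate per 10000 covered T was 2.26 ± 0.648 (SD, n = 5) in baseline 4sU and 2.84 ± 0.424 (SD, n = 4) in baseline DMSO libraries. After acute stress it was 2.58 ± 0.832 (SD, n = 5) with 4sU and 2.28 ± 0.303 (SD, n = 5) with DMSO, and after chronic stress 3.101 ± 0.225 (SD, n = 4) and 2.23 ± 0.0827 (SD, n = 3). The chronic groups did not overlap, with 2.76 to 3.23 and 2.14 to 2.30, and the others did. Over all tested genes the rate was 4.80 ± 0.512 and 2.73 ± 0.303 at baseline, 4.99 ± 0.830 and 2.40 ± 0.181 under acute stress, and 6.33 ± 1.38 and 2.48 ± 0.144 under chronic stress, in the same numbers of 4sU and DMSO libraries. Between stressed and baseline 4sU mice, with libraries scaled to a common overall rate, 0 members were called (edgeR), where 0.0115% of all genes after acute and 0.3% after chronic stress were. Of the members, 1 after acute and 5 after chronic stress had an unadjusted p under 0.05, where 6.51% and 8.15% of all genes did.

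**Figure D4:**
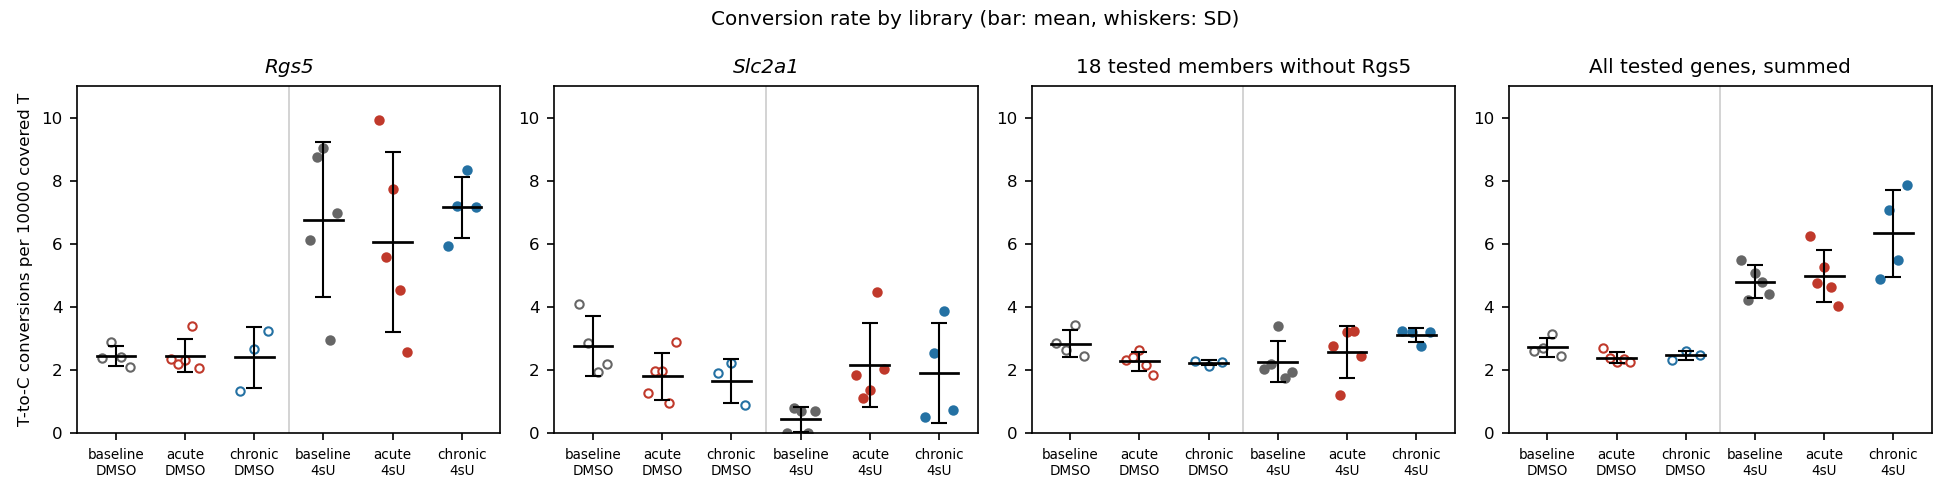
T-to-C conversions per 10000 covered T in each library for Rgs5, Slc2a1, the 18 tested members other than Rgs5 summed (Slc2a1 included) and all tested genes summed (open points DMSO, filled points 4sU; bars are means and whiskers SDs). The group means of Rgs5 and of the sum of all genes lie higher with 4sU than with DMSO in each state. The members without Rgs5 lie on average at 2.26 with 4sU and 2.84 with DMSO at baseline.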

How the data were processed

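RNA of the mouse amygdala was measured in 26 libraries of 6 groups, assigned by the labels. Exon counts per gene symbol came from 2 tables deposited by the authors, 1 for acute and 1 for chronic stress, sharing their 9 baseline columns, whose values were identical. Covered T positions, T-to-C conversions and read counts per 3′ UTR interval came from slamdunk 0.4.3, per the file headers. Per the submitters' processing notes the tools included featureCounts 2.0.1, HISAT2 2.1.0, cutadapt 3.1 and SAMtools 1.9 (roles not given), on mm10. Strand and multi-mapping settings are not stated. On opposite strands, Abcc9 overlaps 5330439B14Rik by 158 exon bases, Cd34 overlaps Gm16897 by 148, Tagln overlaps Pcsk7 by 95 and Eng overlaps Fpgs by 61.

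Counts were fitted in edgeR 4.0.16 (R 4.3.3; TMM, filterByExpr, robust quasi-likelihood test, 1 coefficient per group, Benjamini-Hochberg over all genes tested, threshold 0.05). Each table's 4 groups were fitted together, and all 6 for chronic against acute stress. CPM per kb divides by the deposited exon length. Conversions were fitted with covered T as offset, for genes with a mean of at least 2000 covered T. The tests were also run on simulated data, with results not given here. The members and lists were chosen with earlier results of these data known. All 40 members could be named, each called one with its values, and up to 3 called genes per other list by p-value. Alternatives are in the closing section. The cortex samples were not used.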

Additional observations from a re-analysis of the deposited data

Results flagged for a closer look

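In 8 of 200 sets of values (1 member in 1 group of 4 or 5 libraries), 1 library lay far from the others by Dixon's test at the 95% level, and chance alone gives about 1 in 20. In baseline 4sU mice Abcb1a had 13.82 CPM in library 1 (others 21.26 to 21.98) and Egfl7 23.09 CPM in library 3 (others 27.89 to 29.64). In baseline DMSO mice Cdh5 had 15.63 CPM in library 2 (others 15.91 to 15.96) and Erg 7.331 CPM in library 1 (others 5.686 to 5.957). In acute 4sU mice Clec14a had 3.619 CPM in library 1 (others 1.405 to 1.725) and Pglyrp1 6.452 CPM in library 4 (others 4.646 to 5.152). In acute DMSO mice library 2 was the high one in Cd34, at 33.99 CPM (others 24.52 to 26.8), and in Vtn, at 92.34 CPM (others 54.95 to 60.08).

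The chronic stress effect differed between 4sU and DMSO mice in 20 members by edgeR's test of the difference (log2 change in 4sU minus that in DMSO mice). Of the transporters it was 1.6168 for Slco1a4, 1.2069 for Abcb1a, 1.0888 for Abcg2, 0.7502 for Slco1c1, 0.5055 for Slc16a1 and -0.3186 for Slc7a5. The Slc7a5 call was lost in 12 of 16 fits without 1 library and in 5 of 7 other settings. The surface proteins had 1.2177 for Itm2a, 0.9843 for Ly6a, 0.8093 for Ly6c1 and 0.7322 for Emcn. Among receptors and junction genes it was 0.8276 for Flt1, 0.7506 for Tek, 0.7762 for Ocln, 0.5275 for Esam and 0.4748 for Pecam1. The transcription factor genes Erg and Sox17 had 0.7593 and 0.643. Mural genes had 1.0708 for Rgs5, 0.726 for Myl9 and 0.5139 for Acta2. With reads in 3′ UTR intervals 12 of the 20 were still called, those of Tek, Pecam1, Esam, Slco1c1, Emcn, Acta2 and Myl9 were lost, and Abcg2 could not be tested. The division of the libraries and the chronic effect in 4sU mice cannot be told apart.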

How the results depend on the processing

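Counts below are of called members. The acute average gave 6, and 10 without the 4 low-glutamatergic libraries (acute DMSO 1, 3 and 4, chronic DMSO 1). The acute effect in 4sU mice gave 1, and 2 with no low-count filter, with all 6 groups fitted, with its 2 groups alone or without acute 4sU libraries 1 and 2, 3 with DESeq2 and 0 with reads in 3′ UTR intervals. In DMSO mice it gave 7, and 4 with 3′ UTR reads and 1 with its 2 groups alone. The difference between injections gave 0, and 2 without the low-glutamatergic libraries. The chronic average gave 25, and 14 with 3′ UTR reads and 16 with all 6 groups. Chronic against acute stress gave 7 in DMSO mice, and 3 with 3′ UTR reads, 2 without the low-glutamatergic libraries and 0 with its 2 groups alone, and in 4sU mice 27, and 16 with 3′ UTR reads. The chronic effect differed between injections in 20, and in 16 to 21 over the other settings. For 4sU against DMSO the counts were 25 at baseline (22 to 29 over the other settings) and 24 under acute stress (19 to 27). Conversion at baseline gave 2, and 1 with a minimum of 500 covered T. With 3′ UTR reads the direction turned for Notch3 in the chronic average (0.0882), in chronic 4sU mice (0.4178), in 4sU against DMSO under acute stress (-0.3277) and in chronic against acute 4sU mice (0.3754), and in chronic 4sU mice for Egfl7 (0.0865) and Tagln (-0.2589). The cause was not tested. Leaving out 1 library gave 6 to 9 for the acute average, 1 to 3 in 4sU and 4 to 9 in DMSO mice, 1 to 9 for chronic against acute DMSO and 1 to 2 for conversion at baseline. The 2 settings that leave out libraries by their markers or level were chosen after seeing the data.

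With the replicate number as a replicate block the counts were 6 for the acute average, 1 in 4sU and 5 in DMSO mice, 23 for the chronic average, 28 in 4sU and 0 in DMSO mice, 5 for chronic against acute DMSO and 2 for conversion at baseline. Deviations of 58 same-numbered pairs of libraries correlated at -0.49 to 0.391, with 19 over 0.1, so the numbers were not taken to pair samples. Low counts limit Clec14a, Anpep and Higd1b, and few conversions limit the rate of Slc2a1.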
